A study of Mus musculus with 3 samples.

Results

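The immunoglobulin kappa (Igk) locus was described in 2 deposited peak lists from a mouse precursor B-cell acute lymphoblastic leukaemia. Its members were all peaks of either list that overlapped positions 67400000 to 70750000 of chromosome 6 (mouse build mm9), a window of 3.35 Mb. They numbered 228 of 47610 peaks in all, made up of 201 of 29468 H3K27ac peaks and 27 of 18142 H3K4me3 peaks. H3K27ac is acetylation of histone H3 at lysine 27, and H3K4me3 is trimethylation of lysine 4. The cells were driven by the Bcr-Abl fusion kinase, grown in culture and given no stimulation or treatment. There was 1 chromatin immunoprecipitation library for H3K27ac, 1 for H3K4me3 and 1 with control IgG, all from the same kind of culture. The IgG library had no peak list and was not analysed here. No value below therefore has a replicate error, no test between samples was possible, and the 95% intervals cover counting error only, with peaks treated as independent.

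The kappa light chain is assembled in developing B cells by the RAG recombinase, which joins a variable (V) segment to a joining (J) segment ahead of a constant (C) segment. The V segments form a long array, and J and C lie together at its high-coordinate end in the mouse. Kappa recombination normally follows that of the heavy chain, at the small pre-B stage. Enhancers in the intron between J and C and beyond C are known to drive kappa transcription and recombination. Active enhancers and promoters both carry H3K27ac, whereas H3K4me3 marks mainly promoters in use. H3K4me3 is also the mark bound by the PHD finger of RAG2. Joining removes or inverts the DNA between the joined segments on that allele, and whether the alleles of these cells were rearranged was not analysed here.

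RefSeq's gene table for another mouse build, GRCm38.p6, was used for names and order. It lists 168 Igk segments on chromosome 6, of which 102 are V segments, 60 are V pseudogenes, 5 are J segments and 1 is the C segment Igkc. The array opens with Igkv2-137 at low coordinates, and Igkv3-1 is the V segment next to J. Between the first and the last segment it lists 30 other genes, 21 of them pseudogenes, and none that codes for a protein. On the high side the nearest protein-coding gene is Rpia, ribose-5-phosphate isomerase. After Rpia comes Eif2ak3, the endoplasmic reticulum stress kinase PERK. Because the builds differ, no peak was assigned to a segment or gene, and the cell type label was not checked against marker genes. No genome of mm9 was used here, so peaks are given by position without their sequence.

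The Igk window was densely acetylated, while its H3K4me3 lay near the level of the whole list. Its 201 H3K27ac peaks amounted to 60.0 per Mb and covered 520 kb, or 15.5% of the window, against 11.3 per Mb and 2.53% over the span of the whole list. The 27 H3K4me3 peaks amounted to 8.06 per Mb and covered 41.0 kb, or 1.22%, against 6.96 per Mb and 1.37% over the whole list. The window spans 0.129% of the sequence between the first and last H3K27ac peaks of all chromosomes. It held 0.682% of all H3K27ac peaks and 0.149% of all H3K4me3 peaks.

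Acetylated peaks were sparser on both sides of the locus. Windows of the same length held 27 H3K27ac peaks (8.06 per Mb, 1.25% of the sequence) on the low side and 52 (15.5 per Mb, 3.47%) on the high side. For H3K4me3 these windows held 10 and 40 peaks. The Igk window thus had more H3K27ac peaks than either flank, whereas its H3K4me3 count lay between theirs. Each peak has a score, the authors' own value, which no source used here defines; it is compared within a list only, and many strong peaks are tied at 3100, called the ceiling here. The first H3K27ac peak inside began at 67504741, scored 531.94 and followed a stretch of 138 kb with neither mark. The last H3K27ac peak outside on that side ended at 67366754 and scored 347.02. At the other border the last H3K27ac peak inside (70740513 to 70743765) scored 3100, and the first outside (70762001 to 70762809) scored 113.52. Among H3K4me3 peaks the first inside (67825693 to 67827101) scored 279.34, while the nearest below the window (67215689 to 67221203) scored 3100.

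**Figure D1:**
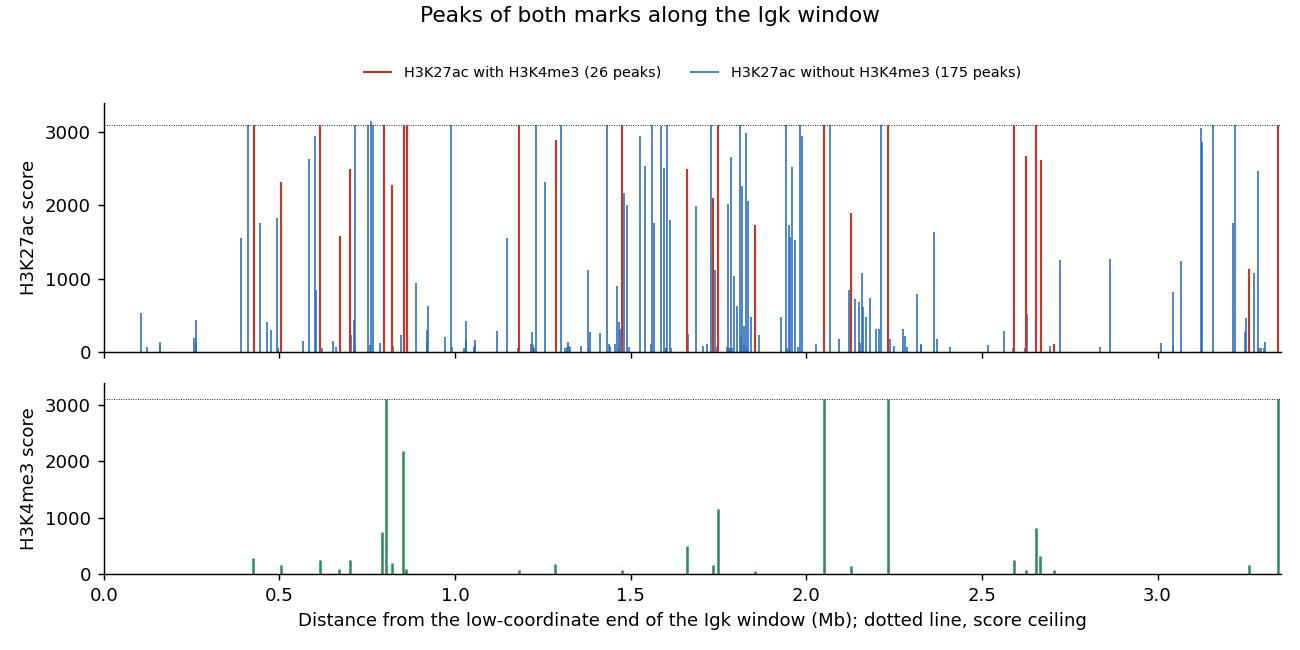
Score of each H3K27ac peak (upper panel, red with and blue without an overlapping H3K4me3 peak) and each H3K4me3 peak (lower panel) against distance in Mb from the low-coordinate end of the Igk window. Acetylated peaks are spread along most of the 3.35 Mb, and 4 of the 27 H3K4me3 peaks reach the score ceiling of 3100.

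Most acetylated peaks of the locus had no H3K4me3. Of the 201 H3K27ac peaks, 26 shared at least 1 bp with an H3K4me3 peak (12.9%, interval 8.63 to 18.4%) and 175 did not. Over the whole H3K27ac list 52.3% of peaks overlapped H3K4me3. The flanks had 33.3% (interval 16.5 to 54.0%) on the low side and 69.2% (interval 54.9 to 81.3%) on the high side. In the other direction, all 27 H3K4me3 peaks of the window lay on H3K27ac (interval 87.2 to 100%), against 86.1% over the whole H3K4me3 list. So did all 13 in the chromosome 12 region described below (interval 75.3 to 100%). The part of the dense acetylation of the window in these shares was not tested.

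The low share with H3K4me3 was present at every level of the H3K27ac score. Here and below, elsewhere means all peaks of the same list outside the Igk window. Among the 32 Igk peaks at or above the ceiling, 13 overlapped H3K4me3 (40.6%, interval 23.7 to 59.4%), against 91.1% (interval 90.4 to 91.7%) of the 7074 other peaks in that class. In the whole list 90.8% of peaks at or above the ceiling overlapped H3K4me3. In the chromosome 12 region described below, 5 of 15 such peaks did. For scores from 1000 to below the ceiling the share was 23.5% in the window (12 of 51, interval 12.8 to 37.5%), against 74.0% elsewhere. For scores of 300 to below 1000 it was 0 of 29 peaks (interval up to 11.9%), against 43.5% elsewhere. For 100 to below 300 it was 1 of 38, against 23.8%. None of the 51 weakest Igk peaks, with scores of 50 to below 100, overlapped H3K4me3 (interval up to 6.98%), against 15.6% elsewhere. The intervals of the Igk window and of the other peaks were apart in each of the 5 classes.

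**Figure D2:**
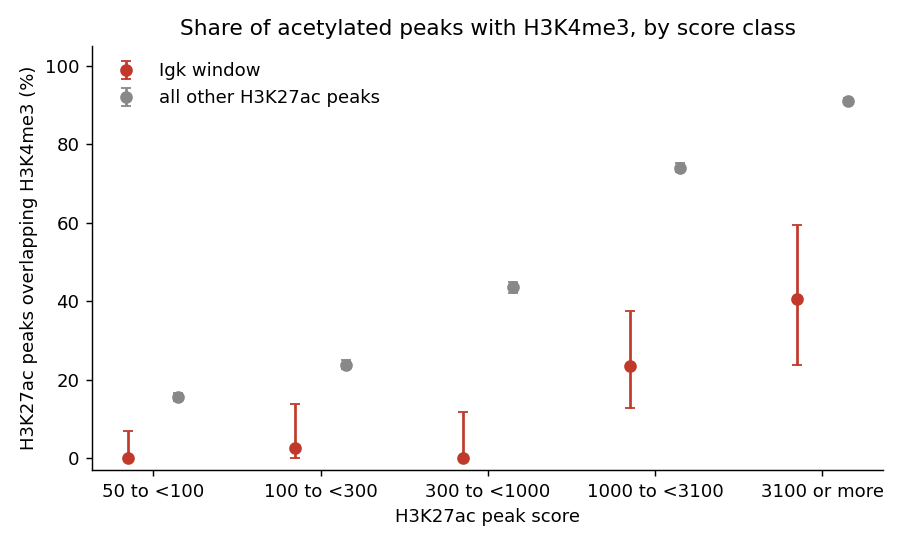
Percentage of H3K27ac peaks that overlap an H3K4me3 peak in 5 classes of H3K27ac score, for the Igk window (red) and all other H3K27ac peaks (grey), with exact 95% binomial intervals for counting error. At scores of 3100 or more the share was 40.6% in the Igk window and 91.1% elsewhere.

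The 19 Igk peaks at or above the ceiling without H3K4me3 made up 10.9% of the 175 acetylation-only peaks of the window (interval 6.66 to 16.4%). Outside it the share was 4.56% (633 of 13884, interval 4.22 to 4.92%). In the chromosome 12 region described below it was 7.52% (10 of 133, interval 3.66 to 13.4%), and that interval overlapped both. These 19 were 2.91% of all such peaks in the list (interval 1.76 to 4.51%). Their median width was 5326 bp (interval 3453 to 6903 bp), which did not differ beyond counting error from the 4760 bp (interval 4130 to 6921 bp) of the 13 with H3K4me3 in the window. The 633 outside the window had a median of 4895 bp (interval 4670 to 5076 bp).

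Taken over all 201 peaks, H3K27ac scores were not shifted upward in the locus. At or above the ceiling were 32 of the 201 peaks (15.9%, interval 11.2 to 21.7%), against 24.1% of the whole list. Scores under 100 were given to 51 peaks (25.4%, interval 19.5 to 32.0%), against 17.7% of the whole list. The median score was 464 (interval 282 to 843) in the window and 711 (interval 690 to 738) elsewhere, and these intervals overlap. Within the acetylation-only class the order was the other way round. There the median score was 297 (interval 201 to 471) in the window and 188 (interval 182 to 194) elsewhere.

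Strong Igk peaks were wider than peaks of like score elsewhere, except those at the ceiling without H3K4me3. For scores from 1000 to below the ceiling the median width was 3507 bp (interval 3279 to 3854 bp) in the window and 2250 bp (interval 2229 to 2273 bp) elsewhere. At or above the ceiling it was 4872 bp (interval 4130 to 6454 bp) in the window and 3490 bp (interval 3448 to 3542 bp) elsewhere. These classes hold fewer peaks with H3K4me3 in the window than elsewhere, and elsewhere peaks of these classes were wider without it than with it. Among ceiling peaks with H3K4me3 the medians were 4760 bp in the window (interval 4130 to 6921 bp) and 3367 bp elsewhere (interval 3322 to 3411 bp). Among those without it the intervals overlapped, as given above. For scores from 1000 to below the ceiling, peaks with H3K4me3 measured 3588 bp in the window (12 peaks, interval 3282 to 4100 bp) and 2081 bp elsewhere (interval 2062 to 2101 bp). Those without it measured 3467 bp in the window (39 peaks, interval 2967 to 4047 bp) and 2870 bp elsewhere (interval 2808 to 2914 bp). The weakest class measured 672 bp (interval 626 to 728 bp) in the window and 659 bp (interval 650 to 666 bp) elsewhere, with overlapping intervals. Widths of at least 4000 bp were found in 40 of the 201 peaks (19.9%, interval 14.6 to 26.1%), against 10.9% of the whole list. In the chromosome 12 region described below the share was 15.2% (interval 9.76 to 22.1%), an interval that overlapped that of the window. Over all 201 peaks the median was 2093 bp (quartiles 847 and 3530 bp, interval 1549 to 2462 bp), and 1781 bp elsewhere (quartiles 1022 and 2714 bp, interval 1762 to 1797 bp), so the median intervals overlapped while the quartiles lay further apart in the window.

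The widest H3K27ac peak of the locus measured 19.7 kb (68188067 to 68207773), was the 27th widest of the list and held 2 H3K4me3 peaks. It was the single H3K27ac peak of the window with more than 1. The next widest were 9536 bp (68162919 to 68172454), 8848 bp (68697454 to 68706301), 8464 bp (68829681 to 68838144) and 8109 bp (68148268 to 68156376), all at the ceiling and none with H3K4me3. Positions 68250066 to 68257249 (7184 bp) and 69988754 to 69995674 (6921 bp) were also at the ceiling and carried H3K4me3. Of the remaining members of the 10 widest, the peak at 69124856 to 69131758 (6903 bp) was at the ceiling. Peaks of 6973 bp (68991040 to 68998012) and 6954 bp (67981796 to 67988749) scored 2503.94 and 2632.74. In all, 3 of the 10 widest overlapped H3K4me3 and 8 were at the ceiling. Over all 201 peaks these shares were 12.9% and 15.9%, and over the whole list 52.3% and 24.1%. The shares among the widest peaks elsewhere were not computed. The single score of the window above the ceiling, 3145.14, belonged to a peak of 3217 bp without H3K4me3 (68158541 to 68161757). With 31 peaks tied at 3100, no further order by score can be given beyond width, and by that rule the last of the 10 highest was a 6614 bp peak (70554210 to 70560823).

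Acetylated peaks were densest between 1.5 and 2.0 Mb from the low end of the window. From the low to the high end, successive stretches of 500 kb held 15, 33, 40, 51, 29 and 14 H3K27ac peaks, and the last 350 kb held 19. Per Mb the range was from 28.0 in the sixth stretch to 102 in the fourth. The share of sequence under H3K27ac was 28.7% in the fourth stretch (1.5 to 2.0 Mb from the low end) and 23.1% in the second (0.5 to 1.0 Mb), against 6.37% in the first and 6.39% in the sixth. H3K4me3 followed another order. Of its 27 peaks, 9 lay in the second stretch and 4 in the fourth, where acetylated peaks were densest. In stretches of 100 kb (the last of 50 kb), 7 of 34 held 10 or more H3K27ac peaks and together accounted for 80 of them, 2 held none, and 15 held no H3K4me3 peak. The most covered of these stretches, at 46.0%, began 0.7 Mb from the low end.

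**Figure D3:**
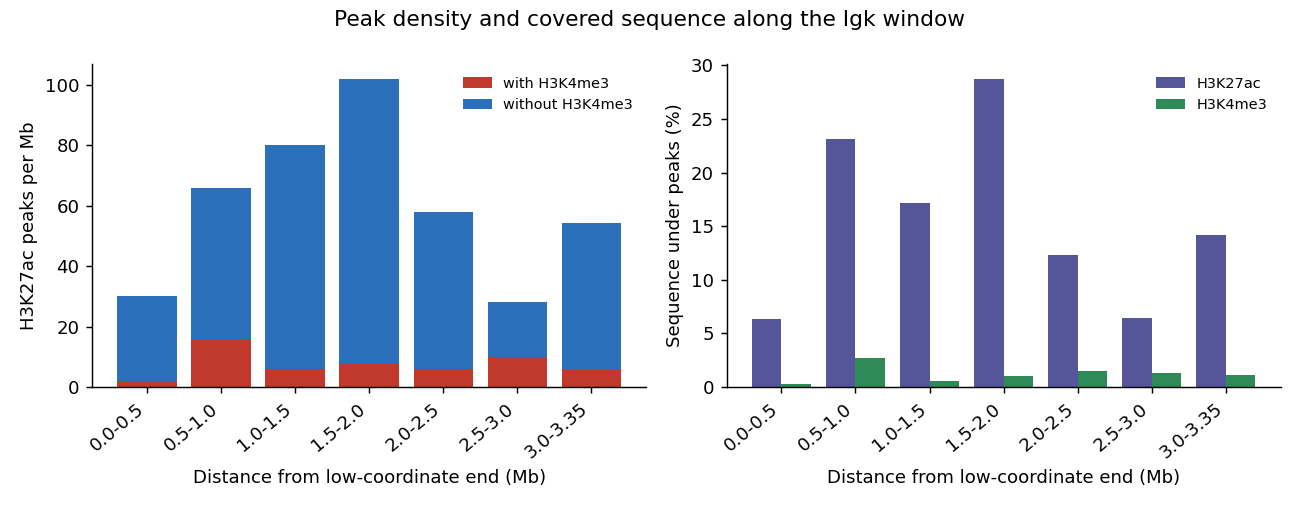
H3K27ac peaks per Mb with and without H3K4me3 (left) and the percentage of sequence under peaks of each mark (right), in stretches of 0.5 Mb from the low to the high end of the Igk window, the last one of 350 kb. The fourth stretch has the highest acetylated peak density, 102 per Mb, and 28.7% of its sequence under H3K27ac.

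Acetylated peaks were crowded within the locus, as they were in the chromosome 12 region described below. The median distance to the nearest other H3K27ac peak was 1.25 kb in the window (interval 1.01 to 2.04 kb) and 5.53 kb elsewhere (interval 5.35 to 5.72 kb). Another H3K27ac peak lay within 1000 bp of 85 of the 201 (42.3%, interval 35.4 to 49.4%), against 25.1% of the whole list. In the chromosome 12 region these values were 1.02 kb (interval 0.606 to 1.72 kb) and 49.0% (interval 40.6 to 57.4%). In 13 cases in the Igk window neighbours were less than 100 bp apart, the smallest distance being 7 bp. With H3K27ac peaks within 1000 bp of each other joined, the count was 154.

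Stitching H3K27ac peaks less than 10 kb apart gave 78 regions in the locus, with a mean of 2.58 peaks per region, against 1.69 elsewhere. Regions of 5 or more peaks numbered 11 and held 82 of the 201 peaks (40.8%), against 17.0% of the whole list. Of these 11 regions, 6 held no H3K4me3 peak, against 55 of all 78 regions of the locus. The whole list had 74 regions of 5 or more peaks without H3K4me3. Their share among all its regions of 5 or more peaks was not computed. The region with the most summed peak length ran from 69175364 to 69243157, with 17 peaks and 37.5 kb under peaks, and ranked 48th of 17370 in the list. It held no H3K4me3. It was followed by 31.3 kb in 9 peaks without H3K4me3 (69341682 to 69390800), 28.5 kb in 9 peaks with 1 H3K4me3 peak (68854975 to 68896417), 21.6 kb in 4 peaks without it (68148268 to 68172454) and 21.0 kb in 7 peaks without it (68986293 to 69014963). Of the 5 largest stitched regions of the locus, 4 lacked H3K4me3, as did 55 of all 78. How often large regions elsewhere lack it was not computed. The longest stretches with neither mark were 143 kb (70265653 to 70408167) and 125 kb (67663151 to 67788414) inside the window, besides the 138 kb stretch across its low border.

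Acetylation-only peaks lay further from H3K4me3 than such peaks did over the rest of the list, but not further than in every region compared. The closest H3K4me3 peak was 35.4 kb away at the median in the window (interval 32.4 to 41.2 kb), and 16.8 kb away elsewhere (interval 16.3 to 17.4 kb). Within 10 kb of H3K4me3 were 30 of the 175 (17.1%, interval 11.9 to 23.6%), against 37.3% of all acetylation-only peaks. Within 100 kb were 84.6% (interval 78.4 to 89.6%), against 87.2% elsewhere (interval 86.7 to 87.8%), so these intervals overlapped. The flank on the low side had a median distance of 47.2 kb (interval 12.3 to 62.1 kb), and that on the high side one of 10.2 kb (interval 4.48 to 29.7 kb). The greatest distance in the window was 301 kb. The longest stretch between H3K4me3 peaks, 554 kb (70104942 to 70659385), contained 14 H3K27ac peaks. The next, of 356 kb (69633821 to 69990027) and 320 kb (68262295 to 68581832), contained 15 and 16.

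The H3K4me3 peaks of the locus were mostly weak for their list. At the ceiling were 4 of 27 (14.8%, interval 4.19 to 33.7%), against 50.3% of the whole H3K4me3 list. Their median score was 245 (interval 152 to 753), against the ceiling of 3100 elsewhere (interval 2967 to 3100), and 7 scored under 100. In the chromosome 12 region described below, 3 of 13 H3K4me3 peaks were at the ceiling (23.1%, interval 5.04 to 53.8%), and 4 scored under 100. The median score there was 306 (interval 87.3 to 3100). With only 13 peaks, both intervals overlapped those of the window and those elsewhere. The median width in the window was 1409 bp (interval 782 to 1791 bp, range 496 to 3801 bp), against 1808 bp elsewhere (interval 1789 to 1832 bp). No H3K4me3 peak of the window was as wide as 4000 bp, which allows a share of up to 12.8% by the interval, against 5.83% elsewhere.

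The 4 H3K4me3 peaks at the ceiling stood apart from the others in width. They measured 3801 bp (68201284 to 68205084), 2943 bp (69449446 to 69452388), 3313 bp (69630508 to 69633820) and 3180 bp (70740262 to 70743441). No other H3K4me3 peak of the window was wider than 2090 bp. The first lay in the 19.7 kb acetylated peak together with an H3K4me3 peak of 1540 bp scoring 752.97 (68192506 to 68194045). The last began 9.74 kb from the high border and was the final H3K4me3 peak of the window. Whether it belongs to the kappa segments or to a neighbouring gene was not determined. Below the ceiling, 4 more scored above 750, namely that peak, one of 1791 bp scoring 2182.81 (68252068 to 68253858), one of 2090 bp scoring 1149.61 (69147322 to 69149411) and one of 1714 bp scoring 826.25 (70052688 to 70054401).

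The other 19 H3K4me3 peaks scored between 51.43 and 500.88. The highest of them were at 69060613 to 69062496 (500.88), 70065535 to 70067249 (324.75) and 67825693 to 67827101 (279.34). Scores of 151.82 to 260.37 belonged to 9 peaks, at 67903743 to 67904749, 68016262 to 68017749, 68101578 to 68102871, 68220209 to 68221362, 68685265 to 68686937, 69134805 to 69135438, 69525931 to 69526924, 69990028 to 69991993 and 70659386 to 70660167. Scores under 100 belonged to 7, at 68070756 to 68071605, 68261563 to 68262294, 68581833 to 68582541, 68876511 to 68877053, 69254843 to 69255338, 70023849 to 70024454 and 70104284 to 70104941. The H3K27ac peaks around these 7 weakest were mostly strong in their own list, with 3 at the ceiling and 3 more scoring 1587.54, 1725.8 and 2670.7, while the seventh scored 115.18. The smallest and weakest, 496 bp scoring 51.43 (69254843 to 69255338), lay in a 4228 bp H3K27ac peak that scored 1725.8.

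Where both marks met, acetylation extended past H3K4me3 on both sides. In 25 cases an H3K4me3 peak met a single H3K27ac peak that met no other, and H3K27ac was the wider mark in all 25 (interval 86.3 to 100%), against 52.3% of 13886 such pairs elsewhere. In the window the H3K27ac peaks of these pairs had a median width of 4100 bp and the H3K4me3 peaks one of 1294 bp. Elsewhere the H3K27ac median was 2249 bp and the H3K4me3 median 2022 bp. Within a pair the H3K27ac peak was 3.32 times as wide as the H3K4me3 peak at the median (interval 2.29 to 4.01, range 1.02 to 8.52), against 1.02 times elsewhere (interval 1.01 to 1.02). The H3K4me3 peak lay wholly inside in 24 of 25 pairs (96.0%, interval 79.6 to 99.9%), against 36.8% elsewhere. The exception was the pair nearest the high border, where an H3K27ac peak of 3253 bp and an H3K4me3 peak of 3180 bp had nearly the same extent. Acetylation reached a median of 1139 bp past the low end of H3K4me3 (interval 907 to 1457 bp) and 1449 bp past the high end (interval 998 to 1721 bp). Elsewhere these distances were 28 and 30 bp.

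**Figure D4:**
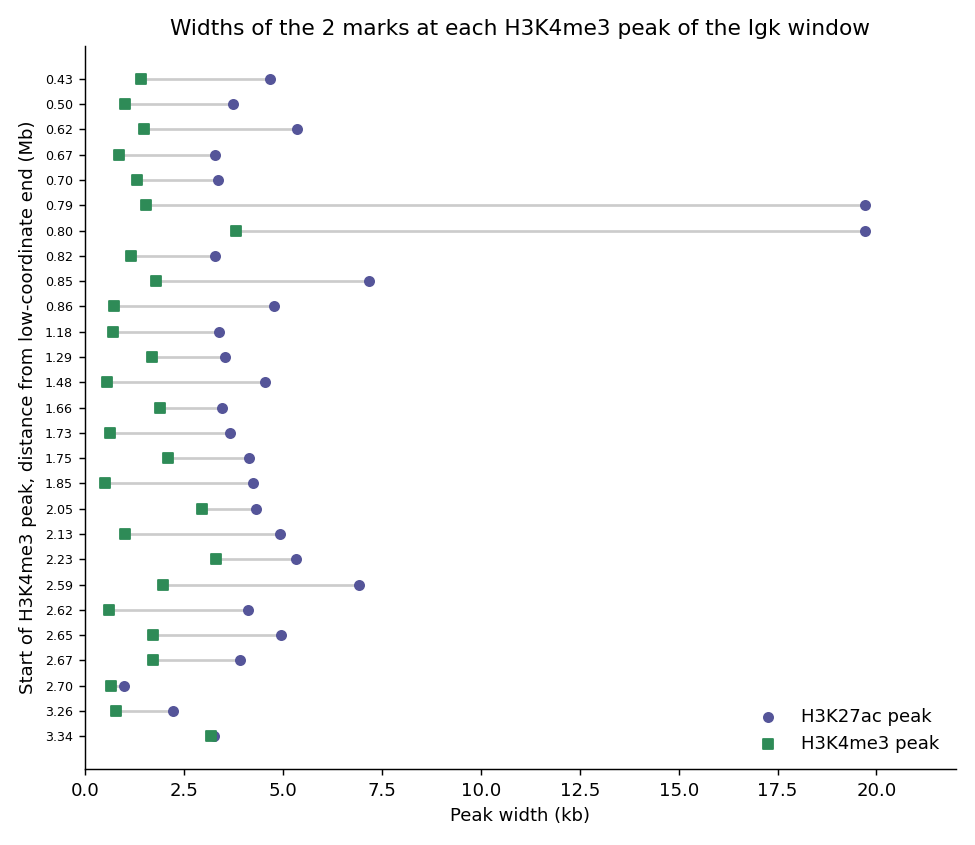
Width in kb of each of the 27 H3K4me3 peaks of the Igk window (green squares) and of the H3K27ac peak that it overlaps (violet circles), ordered by distance from the low-coordinate end. The H3K27ac peak is wider in every row, and rows at 0.79 and 0.80 Mb share the 19.7 kb H3K27ac peak.

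Weak H3K4me3 peaks elsewhere also lay in wider acetylated peaks. The Igk pairs exceeded these as a group, but their intervals overlapped the range of values in the chromosome 12 region described below. With H3K4me3 scores under 300, the 17 Igk pairs had a median width ratio of 3.72 (interval 2.84 to 5.75), against 2.36 (interval 2.28 to 2.43) in 2578 pairs elsewhere. The acetylated peaks of these pairs measured 3742 bp at the median (interval 3352 to 4671 bp) in the window and 2034 bp (interval 1957 to 2086 bp) elsewhere. Their median H3K27ac score was 2490 in the window and 894 elsewhere. In the chromosome 12 region, 5 such pairs had a median width ratio of 3.38 (interval 2.31 to 9.61). The acetylated peaks of these 5 pairs measured 3446 bp at the median (interval 2071 to 5064 bp), with a median score of 2729. With only 5 pairs, both intervals are the range from the lowest to the highest value. They overlapped the intervals of the Igk window and those elsewhere. The 26 Igk peaks with H3K4me3 had a median H3K27ac width of 4115 bp (interval 3444 to 4760 bp), against 1641 bp (interval 1273 to 2203 bp) for the 175 without. A wider peak has more room to meet another, and the part of width in this difference was not tested.

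At the high-coordinate end, where the J and C segments lie, acetylation formed a row of separate peaks. Most of them were without H3K4me3, as in the window as a whole. The last 150 kb of the window (70600001 to 70750000) held 12 H3K27ac peaks, or 80.0 per Mb, with 19.1% of its sequence under H3K27ac. It held 2 H3K4me3 peaks, which covered 2.64% of it. H3K4me3 overlapped 2 of the 12 H3K27ac peaks, against 26 of 201 in the window (12.9%) and 52.3% of the whole list. Of the 12 H3K27ac peaks, 2 were at the ceiling (16.7%, against 15.9% of the window), and their median score was 770 (interval 58.1 to 2462), against 464 in the window. From the low side these began with a pair without H3K4me3, of 3952 bp scoring 1764.07 (70611604 to 70615555) and of 5401 bp at the ceiling (70617596 to 70622996). After a distance of 24.7 kb came peaks scoring 278.1 (70647655 to 70649680) and 464.26 (70651857 to 70654454). The next, of 2221 bp scoring 1131.61 (70658334 to 70660554), contained an H3K4me3 peak of 782 bp scoring 165.95. It was the first H3K4me3 peak after the 554 kb stretch without this mark.

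A further 14.2 kb on was an H3K27ac peak of 2519 bp scoring 1075.62 (70674706 to 70677224), and 6.61 kb after it lay one of 3467 bp scoring 2461.81 (70683837 to 70687303). Neither overlapped H3K4me3. Then followed 4 small H3K27ac peaks of 530 to 977 bp, scoring 53.76, 50.29, 58.15 and 136.7, between 70689175 and 70705128. After 35.4 kb without H3K27ac, the peak at 70740513 to 70743765 carried both marks at the ceiling. The kappa enhancers lie in this end by background knowledge, but which peak covers which element was not determined, since no mm9 annotation was used. Nor was it determined whether the window runs past the C segment towards Rpia, the nearest protein-coding gene on that side. The peaks closest to the high border therefore need not belong to the kappa segments.

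**Figure D5:**
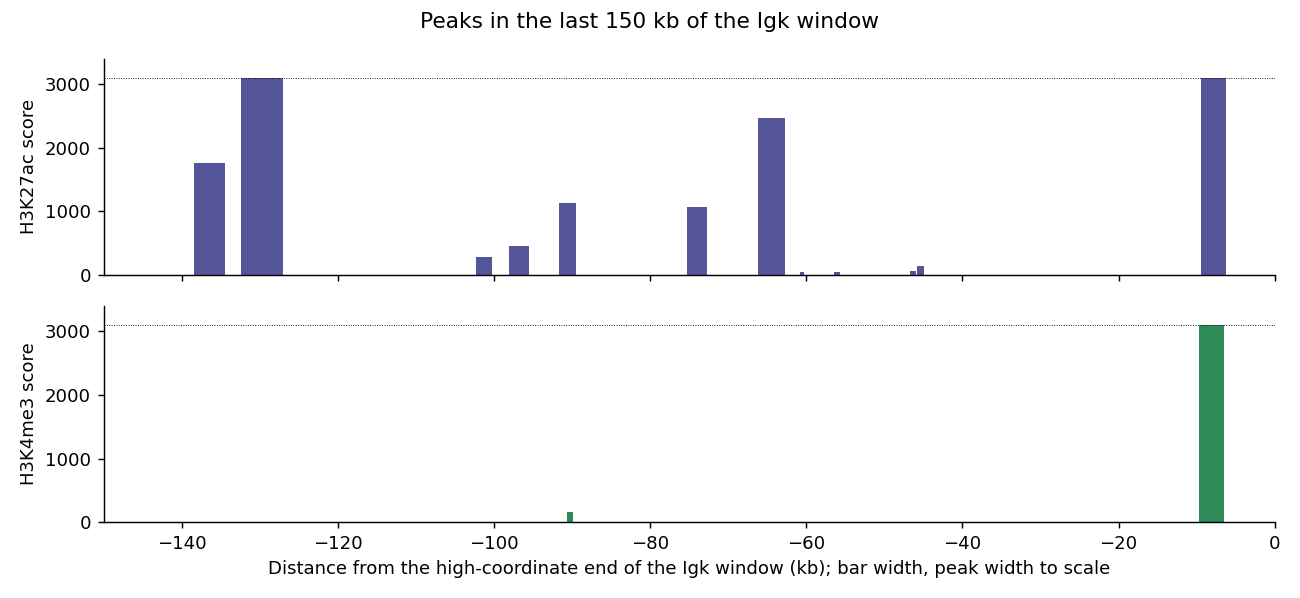
Score of H3K27ac (upper panel) and H3K4me3 (lower panel) peaks in the last 150 kb of the Igk window against distance in kb from its high-coordinate end, with bar width equal to peak width. Of 12 H3K27ac peaks, 2 overlap H3K4me3, and the peak of 3253 bp nearest the end has both marks at the ceiling of 3100.

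A further region of the genome had a like make-up, on chromosome 12 at 115000001 to 117000000, near the end of that chromosome where the heavy chain locus lies. It was picked as the pair of neighbouring 1 Mb bins outside the window with the most H3K27ac peaks without H3K4me3, so its counts are a description. The 2 Mb of the Igk window set beside it (68000001 to 70000000) were picked by the same rule within the window. Both regions were thus chosen for many acetylation-only peaks. A high density and a low share with H3K4me3 follow in part from that choice. The Igk bins held 77.0 H3K27ac peaks per Mb with 20.2% of the sequence covered. The chromosome 12 bins held 72.5 per Mb with 18.4% covered. H3K4me3 overlapped 11.7% of the H3K27ac peaks in the Igk bins (interval 7.08 to 17.8%) and 8.28% in the chromosome 12 bins (interval 4.35 to 14.0%). The median H3K27ac score was 418 (interval 240 to 843) in the Igk bins and 334 (interval 203 to 491) in the chromosome 12 bins. The 17 pairs of the Igk bins had a median width ratio of 3.60 (interval 2.11 to 4.96), against 3.06 (interval 2.31 to 3.49) for the 9 on chromosome 12. For the share with H3K4me3, the median score and the width ratio the intervals of both regions overlapped. The distance from acetylation-only peaks to H3K4me3 was shorter in the Igk bins, with a median of 35.4 kb (interval 30.7 to 41.2 kb), than in the chromosome 12 bins, with 63.4 kb (interval 45.9 to 87.9 kb), and these intervals were apart. When the chromosomes were divided into stretches of the window's length, 775 did not touch it. They held a median of 14 acetylation-only peaks, and the highest count, 175 on chromosome 12 (113900035 to 117250035), was equal to that of the Igk window. The next highest was 76, on chromosome 16.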

How the data were processed

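The authors deposited 1 peak list per mark, with position and a score for each peak. MACS was the peak caller and mm9 the build, per the submitters' processing notes, and per the series' design text each mark had an IgG control. The MACS version, the aligner, the treatment of reads that match several of the similar V segments and the read depth were not given in the sources used here. Each deposited score is defined by no header, ranges from 50.01 and was compared within a list only. Depth is unknown.

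From these lists, overlaps (at least 1 bp), widths, distances and stitched regions were computed in Python 3.11.15 (SciPy 1.17.1, NumPy 2.4.6, pandas 2.3.3). The overlap code was checked on shifted copies of listed H3K27ac peaks, and the stitching code on made-up peaks. Shares carry exact Clopper-Pearson intervals and medians order-statistic intervals, both at 95% and for counting error only. For the medians of the 5 chromosome 12 pairs the interval is the range of the values, which falls slightly short of 95%. No filter on peaks was applied. Peaks named by position are all H3K4me3 peaks, the 10 widest and 10 highest-scoring H3K27ac peaks, all peaks of the last 150 kb, the first and last peaks, the 5 largest stitched regions and the 3 longest stretches with neither mark. The 3 longest stretches between H3K4me3 peaks were added after their values were seen, as were the peaks just outside the window. The window and these rules were chosen with earlier results of these data known. Alternatives covered the score minimum, overlap, joining, window borders, stitching distance and the length of the high end.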

Additional observations from a re-analysis of the deposited data

How the results depend on the processing

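With 1 library per mark, leaving out a replicate was not possible. No paired analysis was possible because no result comes from a test between replicates. Of 29 alternative values for 9 results, 26 were inside the reported value's own interval, or for counts within 1.5 times it, and 3 were not. The median H3K27ac width was 2093 bp and became 2828 bp when peaks scoring under 100 were dropped from each list and 2632 bp with neighbours within 1000 bp joined first, as removing or joining small peaks must give. The 78 stitched regions became 50 at a stitching distance of 20 kb. The share of Igk H3K27ac peaks with H3K4me3 was between 12.5 and 16.9% over its 5 alternatives, and that of H3K4me3 peaks with H3K27ac was 100% in all 5. Unknown depth, and reads that match several V segments, limit how weak or missing peaks can be read.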
